A study of Mus musculus with 12 samples.

Results

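Gasdermins are pore-forming proteins of the cell membrane, and the inflammasome genes described here encode the sensor, the adaptor, the proteases and the cytokine that act around them. A sensor such as NLRP6 assembles with the adaptor ASC, the product of Pycard, and recruits caspase-1. Caspase-1, and mouse caspase-11 from Casp4, which binds bacterial lipopolysaccharide in the cytosol, cleave gasdermin D and so release its pore-forming part, while caspase-1 also matures interleukin-18, a cytokine made by the intestinal epithelium. The Gsdmc genes encode gasdermins of the intestinal epithelium that are known to rise during type 2 immune responses, such as those to helminths, through IL-4 and IL-13 receptor signalling.

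The 9 genes were taken from the count table by their mouse symbols. They are Gsdmd, Gsdmc2, Gsdmc3, Gsdmc4, Casp1, Casp4, Pycard, Nlrp6 and Il18, of 55414 genes in the table and 13057 genes tested, and all 9 passed the filter on low counts. The genes were chosen by name with results of these libraries in view, and it is not recorded on which measured values they were selected, so their counts and adjusted p-values describe these libraries and are not independent evidence. Cells were sorted from small-intestinal crypts of naive C57BL/6J mice into Paneth cells, the granule-rich antimicrobial cells of the crypt base, and non-Paneth cells. The mice were wild type (WT) or GRvillinKO (GRKO), in which the glucocorticoid receptor gene Nr3c1 is deleted in villin-expressing epithelium, so the deletion was not limited to Paneth cells. Each of the 4 groups, Paneth and non-Paneth cells of either genotype, held 3 libraries, and the labels name no further treatment, age or batch, so a batch that followed the groups cannot be told apart from them. Paneth cells were gated as CD24+ cKIT+ cells of medium to high side scatter without CD31, CD45 or TER119. How the non-Paneth cells were gated is not stated in what was read here. The genotype comes from the sample titles, because the genotype field of the records gives all Paneth libraries as WT and all non-Paneth libraries as GRKO. The labels do not say whether the replicates were separate mice, so the p-values measure the spread between these libraries, which may be technical in part.

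Library totals lay between 11126297 and 15910292 counts. Levels below are CPM values, the count of a gene relative to the library total after TMM scaling, which corrects for differences in composition, and replicates are listed in the order 1, 2 and 3. Nr3c1, the deleted gene, was at 40.9, 50.4 and 54.1 CPM in WT Paneth cells and at 7.98, 5.82 and 15.4 CPM in GRKO Paneth cells. In non-Paneth cells it was at 110, 126 and 131 CPM in WT and at 20.05, 13.1 and 24.5 CPM in GRKO libraries, so the titles and the deleted gene had the same order in every library. The 8 Paneth cell markers summed to between 433130 and 674090 CPM in the 6 Paneth libraries and to between 365 and 1135 CPM in the 6 non-Paneth libraries. Because these few genes took so much of a Paneth library, scaling by library totals alone would shift the median log2 difference of all genes between Paneth and non-Paneth cells to -0.68 in WT and -1.05 in GRKO, against 0.01 and -0.08 with TMM. Xist was carried by both WT replicate 2 libraries, at 193 and 215 CPM in the Paneth and the non-Paneth sort. Every other library, including all of GRKO, was at 0.428 CPM or less, so Xist was not balanced over the genotypes. WT replicate 2 and the other WT replicates therefore did not come from 1 and the same mouse. The WT Paneth library of that number also held 2509 CPM of 8 enterocyte markers, against 834 and 938 CPM in the other two.

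The 3 Gsdmc genes lay side by side on the minus strand of chromosome 15 in GRCm39, with Gsdmc2 (ENSMUSG00000056293) at chr15:63696195-63717026, Gsdmc3 (ENSMUSG00000055827) at chr15:63729573-63750407 and Gsdmc4 (ENSMUSG00000055748) at chr15:63763113-63784146, 88.0 kb in all. Gsdmd (ENSMUSG00000022575) lay on the plus strand of the same chromosome at chr15:75733974-75739257, 11.95 Mb away. On chromosome 9, Casp1 (ENSMUSG00000025888, chr9:5298508-5307290) and Casp4 (ENSMUSG00000033538, chr9:5308828-5336783) were neighbours on the plus strand, 1537 bases apart, and Il18 (ENSMUSG00000039217) lay at chr9:50466081-50493633. Pycard (ENSMUSG00000030793) lay at chr7:127588558-127593039 on the minus strand and Nlrp6 (ENSMUSG00000038745) at chr7:140500815-140509105 on the plus strand. Exons of an annotated gene on the opposite strand covered 9.42% of the exonic bases of Gsdmd, 11.5% of those of Pycard and 3.51% of those of Casp1. Of these opposite genes only that of Pycard is in the count table, and the strand that was counted is not stated.

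How far the 3 Gsdmc genes can be told apart bears on every value given for them, so their coding sequences are shown at their start and in a stretch with more differences. The first 150 coding bases of the canonical transcripts differ among the 3 genes at 2 positions, which are in capitals.
Gsdmc2: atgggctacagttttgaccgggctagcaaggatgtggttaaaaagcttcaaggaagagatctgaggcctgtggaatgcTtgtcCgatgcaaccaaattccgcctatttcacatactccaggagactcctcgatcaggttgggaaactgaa
Gsdmc3: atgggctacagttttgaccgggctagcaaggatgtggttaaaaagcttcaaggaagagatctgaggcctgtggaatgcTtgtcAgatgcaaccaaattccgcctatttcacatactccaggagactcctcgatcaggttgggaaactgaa
Gsdmc4: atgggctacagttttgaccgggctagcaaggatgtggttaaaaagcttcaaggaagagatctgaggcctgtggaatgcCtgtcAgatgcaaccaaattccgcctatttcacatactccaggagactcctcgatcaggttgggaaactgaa
Coding bases 1060 to 1179 hold 15 positions that differ among the 3 genes, again in capitals, and 8 of these differ between Gsdmc2 and Gsdmc3.
Gsdmc2: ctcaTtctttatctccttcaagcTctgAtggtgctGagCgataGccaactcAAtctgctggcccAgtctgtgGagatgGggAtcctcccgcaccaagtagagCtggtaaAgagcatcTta
Gsdmc3: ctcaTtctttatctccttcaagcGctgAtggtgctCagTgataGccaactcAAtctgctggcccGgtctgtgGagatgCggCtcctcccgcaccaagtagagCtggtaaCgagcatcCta
Gsdmc4: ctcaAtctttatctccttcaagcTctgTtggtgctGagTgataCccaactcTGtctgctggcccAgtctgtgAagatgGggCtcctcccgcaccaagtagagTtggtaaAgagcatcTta
Over the whole coding sequence of 1440 bases, Gsdmc2 and Gsdmc3 were 97.1% identical, and each was 93.0% identical to Gsdmc4. Of all windows of 50 bases within the exons, 41.4% occurred once in the genome for Gsdmc2, 50.9% for Gsdmc3 and 65.8% for Gsdmc4, and with 100 bases these shares were 68.2%, 74.8% and 85.6%. Among the other 6 genes the share with 50 bases lay between 95.1% for Il18 and 100% for Casp1 and Nlrp6. Reads that map to several places were not counted, so the Gsdmc counts rest on the stretches that differ, and the read length is not stated.

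In WT mice, all 9 genes had a lower mean level in Paneth cells than in non-Paneth cells, and no library of the Paneth sort reached the non-Paneth libraries for any of them. The share of all genes without such overlap was not counted, here or in the comparisons below. A lack of overlap therefore does not set these genes apart from other genes. The comparison asks which sorted fraction holds these transcripts at baseline. Gsdmd and Il18, the pore former and the cytokine, had the largest differences, at 12.03-fold and 14.7-fold in mean CPM, followed by the Gsdmc genes at 5.14-fold to 5.32-fold, while the adaptor Pycard and the sensor Nlrp6 differed by 1.32-fold and 1.43-fold. In edgeR's quasi-likelihood test, 5 of the 9 genes were lower in Paneth cells and none was higher, where 50.7% of all genes tested were called in either direction (24% higher and 26.7% lower). The median log2 difference of the 9 genes was -2.39 against 0.01 for all genes. Under scaling by library totals the 5 remained lower, with the other 4 also called, and of all genes called 12.2% were higher in Paneth cells, against 47.3% with TMM.

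**Figure D1:**
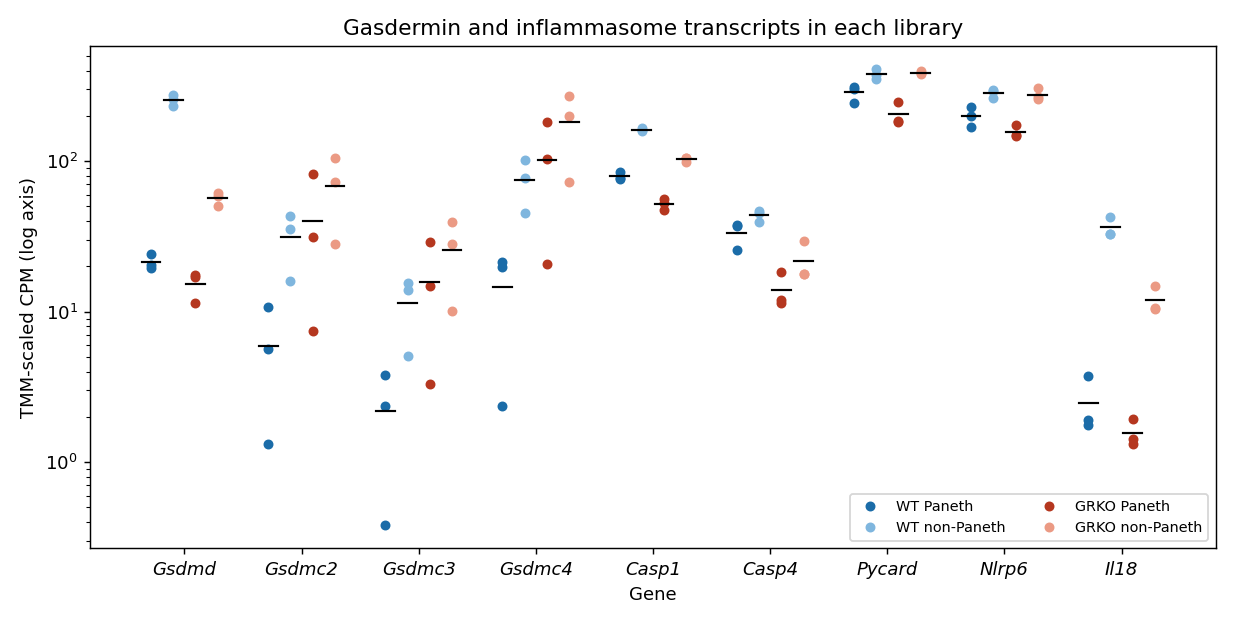
Level of each of the 9 genes in each of the 12 libraries, as TMM-scaled CPM on a log axis; points are libraries, colours are groups and black bars are the means of 3 libraries. Gsdmd in WT non-Paneth cells (234 to 275 CPM) stands far above its other groups, and the Gsdmc genes spread widely within every group.

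Gsdmd was at 20.4, 24.01 and 19.4 CPM in WT Paneth cells, from 164 to 215 counts a library, and at 275, 259 and 234 CPM in WT non-Paneth cells. Every non-Paneth library lay far above every Paneth library, with a log2 difference of -3.59 (SE 0.167, edgeR adjusted p = 8.4e-10). Il18 was at 1.90, 3.71 and 1.78 CPM in WT Paneth cells, which is 15 to 30 counts a library, and at 33.0, 42.8 and 33.0 CPM in WT non-Paneth cells. Its log2 difference was -3.90 (SE 0.258, edgeR adjusted p = 1.4e-08). The highest Paneth value of both genes was in replicate 2, the library with the most enterocyte transcripts. The 8 enterocyte markers themselves were all lower in WT Paneth cells, with sums of 834 to 2509 CPM against 24180 to 26877 CPM, and their part in the differences of Gsdmd and Il18 was not tested. In such bulk samples, fewer cells of a type and less RNA per cell cannot be told apart.

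Casp1, the protease of the canonical inflammasome, was at 77.2, 75.8 and 84.5 CPM in WT Paneth cells and at 161, 159 and 167 CPM in WT non-Paneth cells. The replicates were close together, and the log2 difference of -1.03 (SE 0.106) had an edgeR adjusted p of 1.1e-06. Casp4, at 37.1, 37.9 and 25.7 CPM in Paneth and 39.6, 46.3 and 45.1 CPM in non-Paneth cells, differed by -0.38 on the log2 scale (SE 0.221) and was not called (edgeR adjusted p = 0.17). Pycard was at 304, 310 and 244 CPM in Paneth and 372, 353 and 411 CPM in non-Paneth cells, with a log2 difference of -0.40 (edgeR adjusted p = 0.024). Nlrp6 was at 230, 168 and 198 CPM in Paneth and 299, 293 and 264 CPM in non-Paneth cells, with a log2 difference of -0.52 (edgeR adjusted p = 0.0040). The sensor and the adaptor were abundant in both sorts. The Pycard call was lost when WT Paneth replicate 3 or any of the WT non-Paneth libraries was left out (log2 difference between -0.36 and -0.26), and that of Nlrp6 without WT non-Paneth replicate 2 (-0.40).

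The Gsdmc genes were lower in every WT Paneth library than in every WT non-Paneth library, but the libraries of 1 group lay far apart. Gsdmc2 was at 1.33, 10.8 and 5.68 CPM in WT Paneth and at 16.04, 35.5 and 42.9 CPM in WT non-Paneth cells. For Gsdmc3 the Paneth values were 0.380, 2.35 and 3.79 CPM, the first resting on 4 counts, and the non-Paneth values 5.09, 13.8 and 15.5 CPM. Gsdmc4 was the most abundant, at 2.38, 19.8 and 21.3 CPM in Paneth and 44.9, 77.4 and 101 CPM in non-Paneth cells. Replicate 1 was the lowest library in both sorts for all 3 genes. The log2 differences of -2.46 (SE 1.02), -2.46 (SE 1.03) and -2.39 (SE 0.962) for Gsdmc2, Gsdmc3 and Gsdmc4 did not pass the threshold (edgeR adjusted p = 0.075, 0.076 and 0.068). The replicate number was also used as a block, on the unsettled reading that the numbers pair the WT libraries. With it the differences were -2.55 (edgeR adjusted p = 0.0051), -2.48 (1.2e-06) and -2.61 (0.0096). Casp4 was also called, at -0.39 (0.031), so that all 9 genes were lower, where 53.2% of all genes were called. DESeq2 called the 3 Gsdmc genes too, with log2 differences of -2.42 to -2.36, among 8 of the 9 genes and 41.2% of all genes it tested.

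**Figure D2:**
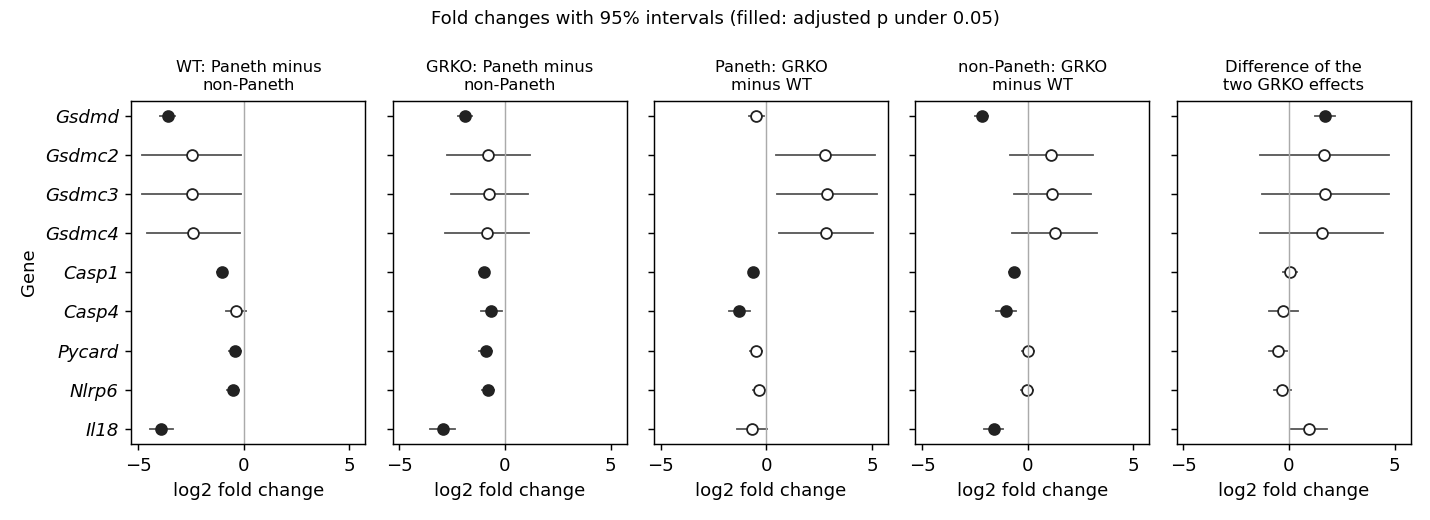
Log2 fold change of each gene in the 5 comparisons, with 95% intervals from edgeR; filled points had an adjusted p under 0.05. Gsdmd is the gene of the 9 filled for the difference of the GRKO effects, at 1.70, and the intervals of the Gsdmc genes are several times wider than those of the other genes.

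In GRKO mice, all 9 genes again had a lower mean level in Paneth cells, and the fitted gap of Gsdmd, Il18 and the Gsdmc genes had a smaller value than in WT, a difference that passed its own test for Gsdmd (given further on). By edgeR, 6 of the 9 genes were lower and none was higher, where 39.2% of all genes were called (21.2% lower), and the median log2 difference of the 9 was -0.84 against -0.08 for all genes. Scaling by library totals also gave 6 lower genes, with 7.57% of all called genes higher, against 45.8% with TMM.

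Gsdmd was at 17.5, 17.0 and 11.4 CPM in GRKO Paneth cells and at 61.3, 50.05 and 58.4 CPM in GRKO non-Paneth cells, a log2 difference of -1.89 (SE 0.161, edgeR adjusted p = 3.9e-07). Il18 was at 1.93, 1.32 and 1.42 CPM in Paneth cells and at 14.9, 10.6 and 10.4 CPM in non-Paneth cells, a log2 difference of -2.95 (edgeR adjusted p = 8.6e-07). For both genes the sorts did not overlap. Casp1, at 56.0, 47.1 and 52.7 CPM in Paneth and 98.6, 105 and 105 CPM in non-Paneth cells, differed by -0.99 (edgeR adjusted p = 4.2e-06), close to its value in WT. Pycard was at 246, 183 and 183 CPM in Paneth and 379, 383 and 395 CPM in non-Paneth cells and differed by -0.92 (edgeR adjusted p = 1.0e-04). Nlrp6 was at 149, 173 and 148 CPM in Paneth and 306, 267 and 258 CPM in non-Paneth cells and differed by -0.82 (edgeR adjusted p = 1.7e-04). These 3 genes had no overlap between the sorts either. Casp4, at 11.4, 11.996 and 18.3 CPM in Paneth and 17.7, 17.9 and 29.6 CPM in non-Paneth cells, overlapped and differed by -0.64 (edgeR adjusted p = 0.040), a call that was lost under DESeq2 (-0.59, adjusted p = 0.0501), under RLE size factors and without 5 of the 6 GRKO libraries, each left out in turn.

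The Gsdmc genes overlapped between the GRKO sorts. Gsdmc2 was at 82.0, 31.4 and 7.48 CPM in GRKO Paneth cells and at 105, 72.9 and 28.2 CPM in GRKO non-Paneth cells. Gsdmc3 was at 28.9, 14.9 and 3.31 CPM in Paneth and 39.2, 28.1 and 10.1 CPM in non-Paneth cells, and Gsdmc4 at 181, 103 and 20.8 CPM in Paneth and 272, 200 and 73.0 CPM in non-Paneth cells. In both sorts replicate 1 was the highest and replicate 3 the lowest for all 3 genes. Their log2 differences of -0.79, -0.73 and -0.84 were not called (edgeR adjusted p = 0.52, 0.52 and 0.49), with 95% intervals that ran from -2.84 to 1.19 over the 3 genes.

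In non-Paneth cells, GR deletion went with less Gsdmd, Il18, Casp1 and Casp4, while Pycard and Nlrp6 stayed close to their WT levels. By edgeR, 4 of the 9 genes were lower and none was higher, where 37.3% of all genes were called (19.8% lower). The median log2 fold change of the 9 genes was -0.04 against 0.02 for all genes. With library totals the same 4 genes were called, while the median of all genes moved to 0.31 and the share of higher genes among all called ones to 74.6%, against 46.9% with TMM.

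Gsdmd showed the largest fall, from 234 to 275 CPM in WT to 50.05 to 61.3 CPM in GRKO non-Paneth libraries, 4.53-fold in mean CPM. Its log2 fold change was -2.18 (SE 0.154, edgeR adjusted p = 9.7e-07). Il18 fell 3.03-fold, from 33.0 to 42.8 CPM down to 10.4 to 14.9 CPM, a log2 fold change of -1.60 (SE 0.208, edgeR adjusted p = 5.8e-05). Neither gene had any overlap between the genotypes. Casp4 had a log2 fold change of -1.01 (SE 0.220, edgeR adjusted p = 0.0028) and Casp1 of -0.66 (SE 0.105, edgeR adjusted p = 2.7e-04), and these neighbouring protease genes were also without overlap. The enterocyte markers moved in the same comparison, with sums of 24180 to 26877 CPM in WT and 5079 to 6301 CPM in GRKO non-Paneth cells, 4 of the 8 called lower and a median log2 fold change of -2.11. The 5 markers of proliferation were all higher, at 671 to 769 CPM in WT and 1157 to 1229 CPM in GRKO libraries. The part of either marker list in the falls of Gsdmd, Il18, Casp1 and Casp4 was not tested.

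Pycard had a log2 fold change of 0.03 (95% interval -0.27 to 0.32) and Nlrp6 of -0.04 (-0.32 to 0.24) in non-Paneth cells. The sign of both moved with the processing, to -0.03 for Pycard with RLE size factors and to 0.24 for Nlrp6 with library totals. The Gsdmc genes had higher means in GRKO non-Paneth cells, by 2.18-fold to 2.44-fold, but GRKO replicate 3 lay within the range of the WT libraries for each of them. Their log2 fold changes of 1.12, 1.16 and 1.28 for Gsdmc2, Gsdmc3 and Gsdmc4 were not called (edgeR adjusted p = 0.34, 0.29 and 0.29).

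In Paneth cells, Casp1 and Casp4 were the 2 genes of the 9 called with GR deletion, both lower, where 3.22% of all genes were called (1.52% lower). The median log2 fold change of the 9 genes was -0.48 against 0.03 for all genes. Casp4 went from 37.1, 37.9 and 25.7 CPM in WT to 11.4, 11.996 and 18.3 CPM in GRKO libraries, a log2 fold change of -1.27 (SE 0.236, edgeR adjusted p = 0.041). Casp1 went from 75.8 to 84.5 CPM down to 47.1 to 56.0 CPM, a log2 fold change of -0.61 (SE 0.107, edgeR adjusted p = 0.035). Both were without overlap between the genotypes. Both calls were lost with library totals (420 genes called with TMM became 2), in a fit on the Paneth libraries alone, and without GRKO Paneth replicate 2 or WT Paneth replicate 1. The log2 fold changes of Casp1 lay between -0.66 and -0.54 and those of Casp4 between -1.32 and -1.17 in those 4 fits. The Casp1 call was also lost without GRKO Paneth replicate 3 (-0.62) and that of Casp4 without WT Paneth replicate 2 (-1.17).

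Gsdmd was lower in every GRKO Paneth library (11.4 to 17.5 CPM) than in every WT Paneth library (19.4 to 24.01 CPM), with a log2 fold change of -0.48 (SE 0.164) that did not pass in edgeR (adjusted p = 0.090) and passed in DESeq2 (adjusted p = 0.048). Pycard, at -0.49 (edgeR adjusted p = 0.058), was not called either, and passed in DESeq2 (adjusted p = 0.011). Nlrp6, at -0.35 (edgeR adjusted p = 0.12), and Il18, at -0.66 (edgeR adjusted p = 0.22, 15 or 16 counts in each GRKO library), were not called. DESeq2 called 7 of the 9 genes here, where it called 12.3% of the genes it tested.

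The Gsdmc genes had the largest fold changes of the 9 in Paneth cells and the widest errors. Gsdmc2 went from 1.33, 10.8 and 5.68 CPM in WT to 82.0, 31.4 and 7.48 CPM in GRKO libraries, and GRKO replicate 3 lay below WT replicate 2. For Gsdmc3 and Gsdmc4, GRKO replicate 3 (3.31 and 20.8 CPM) lay below WT replicate 3 (3.79 and 21.3 CPM), so all 3 genes overlapped. The log2 fold changes were 2.80 (95% interval 0.44 to 5.16), 2.89 (0.53 to 5.25) and 2.83 (0.60 to 5.06) for Gsdmc2, Gsdmc3 and Gsdmc4, with edgeR adjusted p = 0.13, 0.13 and 0.12. DESeq2 gave fold changes of 2.77 to 2.86 and called all 3 genes (adjusted p = 0.030, 0.026 and 0.024).

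The effect of GR deletion differed between the sorts for Gsdmd, the gene of the 9 called in this test. Its log2 fold change was -0.48 in Paneth and -2.18 in non-Paneth cells, a difference of 1.70 (SE 0.222, 95% interval 1.23 to 2.17, edgeR adjusted p = 3.3e-04), where 18.7% of all genes were called (11.5% higher and 7.27% lower). With library totals 29.0% of the genes called were higher, against 61.2% with TMM, and Gsdmd was called at 1.43. The enterocyte markers had a median difference of 1.32 in this comparison, with 2 of 8 called, both higher, and their part in the result for Gsdmd was not tested. The differences were 0.94 (0.10 to 1.79) for Il18, -0.51 (-0.93 to -0.09) for Pycard and -0.30 (-0.70 to 0.09) for Nlrp6, and none was called. With the replicate block Il18 (0.98, edgeR adjusted p = 0.037) and Gsdmc3 (1.59, edgeR adjusted p = 0.0050) were called as well. For Casp1 the difference was 0.05 with a 95% interval of -0.27 to 0.37, and for Casp4 it was -0.26 with an interval of -0.95 to 0.42. The intervals of Gsdmc2, Gsdmc3 and Gsdmc4 ran from -1.38 to 4.73, across 0 in the fit without the block.

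The 3 Gsdmc genes moved together from library to library. Their summed level was 4.09, 32.9 and 30.8 CPM in WT Paneth, 66.0, 127 and 160 CPM in WT non-Paneth, 292, 149 and 31.6 CPM in GRKO Paneth and 416, 301 and 111 CPM in GRKO non-Paneth cells. The sum spanned 102-fold over the 12 libraries and 13.5-fold without WT Paneth replicate 1, which held 43 counts of the 3 genes. Gsdmc4 gave 58.1% to 69.2% of the counts of the 3 genes, Gsdmc2 18.5% to 32.7% and Gsdmc3 7.14% to 12.3%. The share of the Paneth library in the non-Paneth library of the same number was 6.19%, 26.0% and 19.3% in WT and 70.2%, 49.5% and 28.4% in GRKO mice. All 3 GRKO values lay above the 3 WT values, with the smallest gap between GRKO replicate 3 and WT replicate 2. The GRKO numbers did not all pair the sorts, so these shares are uncertain as pairs. For GRKO replicate 1, with the share of 70.2%, the correlation of the sorts was 0.0129 after removing group means. In the fit without the replicate block, the difference between the sorts was called for none of the 3 genes. The relatives Gsdmc and Gsdma3 had no counts in any library.

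**Figure D3:**
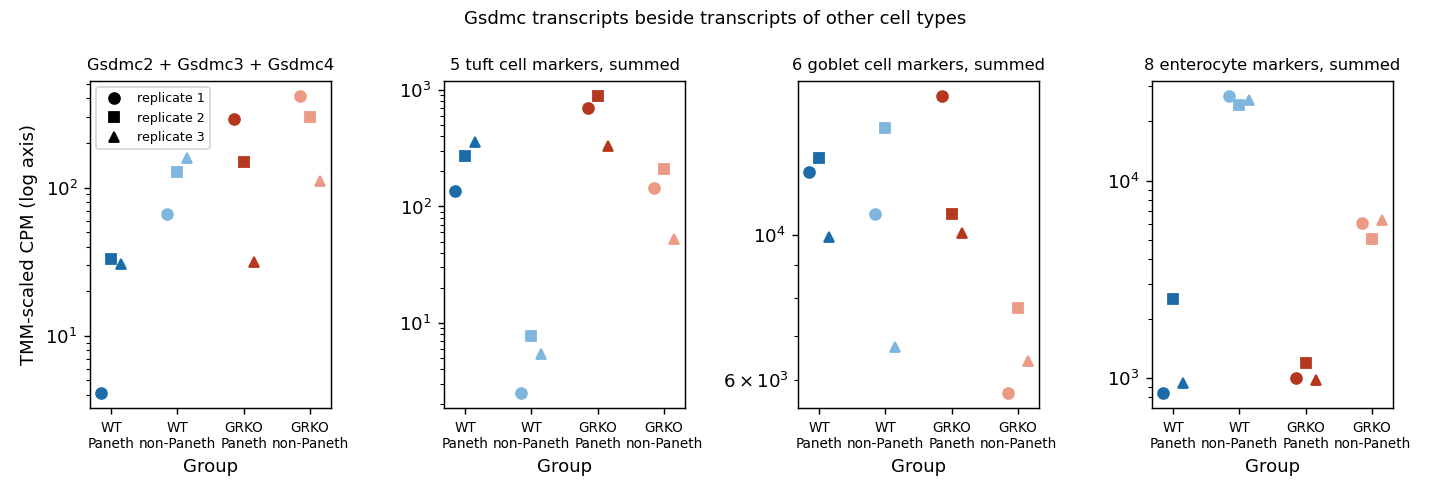
Summed level of Gsdmc2, Gsdmc3 and Gsdmc4 beside the summed level of 5 tuft cell markers, of 6 goblet cell markers and of 8 enterocyte markers, each point 1 library and each symbol a replicate number, in TMM-scaled CPM on log axes. GRKO replicate 3 is the lowest GRKO Paneth library for the Gsdmc sum (31.6 CPM) and the tuft sum (333 CPM). It is also the lowest for the goblet sum (10061 CPM) and the enterocyte sum (978 CPM). Most of the goblet sum of the Paneth libraries is Spink4, which is higher in the Paneth sort. In each panel the WT and GRKO Paneth libraries overlap.

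Tuft cells are the chemosensory cells that start type 2 responses in this epithelium, and their 5 markers (Dclk1, Trpm5, Pou2f3, Il25 and Alox5ap) were read beside the Gsdmc genes. They summed to 136, 274 and 354 CPM in WT Paneth, 2.48, 7.68 and 5.40 CPM in WT non-Paneth, 706, 889 and 333 CPM in GRKO Paneth and 145, 212 and 52.2 CPM in GRKO non-Paneth cells. Of the 5, Il25 was at 0 in every WT non-Paneth library, and the others were detected in every group. All 4 markers that could be tested were higher in GRKO than in WT non-Paneth cells (median log2 fold change 4.89), and neither edgeR nor DESeq2 called any of them in Paneth cells (median 1.38, 1 at an unadjusted p under 0.05 in edgeR). Replicate 1 of WT and replicate 3 of GRKO were the lowest Paneth libraries of their genotype for both the Gsdmc sum and the tuft sum. The highest libraries differed, with replicate 2 of WT and replicate 1 of GRKO for the Gsdmc sum. For the tuft sum they were replicate 3 of WT and replicate 2 of GRKO. In WT mice the tuft sum was higher in Paneth than in non-Paneth cells, while the Gsdmc sum was lower. The 6 goblet cell markers (Muc2, Tff3, Fcgbp, Clca1, Zg16 and Spink4) summed to 12491, 13130 and 9947 CPM in WT Paneth and to 16329, 10756 and 10061 CPM in GRKO Paneth cells, so these sums overlapped. Most of each was Spink4, at 8238, 9603 and 7143 CPM in WT and 13122, 6799 and 6039 CPM in GRKO Paneth cells. In WT mice Spink4 was itself higher in the Paneth sort (log2 difference 4.97). There Fcgbp (-3.04), Clca1 (-3.69) and Zg16 (-4.54) were lower and 2 were not called. The Paneth sums therefore do not measure goblet cells alone. The goblet sums of the non-Paneth libraries lay between 6730 and 14581 CPM in WT and between 5721 and 7731 CPM in GRKO mice. In GRKO against WT Paneth cells edgeR called none of the 6 (median log2 fold change -0.08, 1 at an unadjusted p under 0.05, 1 called by DESeq2). Of these genes Clca1, at 42.4, 119 and 179 CPM in WT and 1056, 918 and 257 CPM in GRKO Paneth cells, had a log2 fold change of 2.71 (edgeR adjusted p = 0.058), while those of the other 5 lay between -0.79 for Zg16 and 0.59 for Fcgbp. The 7 immune markers summed to 6.65, 7.06 and 8.64 CPM in WT Paneth and to 20.6, 31.3 and 4.36 CPM in GRKO Paneth cells, with GRKO replicate 3 again the lowest. Most of it in GRKO replicates 1 and 2 was Ptprc, the gene of CD45, at 0.285, 4.08 and 5.68 CPM in WT and 18.98, 28.8 and 2.08 CPM in GRKO Paneth cells (log2 fold change 2.35, edgeR adjusted p = 0.24), while Csf1r, a macrophage gene, had no counts in either Paneth group. The other immune markers tested went the other way in Paneth cells, Itgam at -0.54 and Cd68 at -1.75 (edgeR adjusted p = 0.29 and 0.11). Cd68 held 40 counts in WT replicate 1 and between 4 and 8 in the other Paneth libraries. In non-Paneth cells the immune sum lay between 5.13 and 10.2 CPM in both genotypes. Ptprc was there at 0.318, 0.407 and 0.160 CPM in WT and at 3.31, 6.08 and 0.302 CPM in GRKO libraries (log2 fold change 3.43, edgeR adjusted p = 0.12). Cd68 was lower there (-1.57, edgeR adjusted p = 0.040), and Itgam was not called (-0.10, edgeR adjusted p = 0.78). The part of tuft, goblet or immune cells in the Gsdmc levels was not tested.

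The receptors and kinases that carry IL-4 and IL-13 signals formed, with the transcription factor gene Stat6, a list of 7 genes. Of these, 5 could be tested, and in GRKO non-Paneth cells 2 were lower and none was higher, against 19.8% lower of all genes. Il4ra, the shared receptor chain, went from 60.0 to 76.4 CPM in WT down to 29.7 to 37.2 CPM, a log2 fold change of -0.98 (SE 0.165, edgeR adjusted p = 3.8e-04), and the kinase gene Tyk2 had a fold change of -0.38 (edgeR adjusted p = 0.018). In Paneth cells edgeR called none of the 5, with 3 at an unadjusted p under 0.05 and 1 called by DESeq2, and the difference between the sorts was called for both, at 1.37 for Il4ra and 0.65 for Tyk2. In WT mice Il4ra (-1.003), Tyk2 (-0.62) and Stat6 (-0.62) were lower in Paneth than in non-Paneth cells, 3 of the 5 against 26.7% lower of all genes.

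Per kb of exonic length, which allows genes to be compared with each other, Pycard led in WT Paneth cells with a mean of 67.5 CPM per kb, before Nlrp6 (39.2) and Casp1 (25.2), each apart from the next by more than the summed SDs. Gsdmd (7.09), Gsdmc4 (6.95) and Casp4 (6.39) came next and did not differ beyond their spread, nor did Gsdmc2 (2.56), Gsdmc3 (0.934) and Il18 (0.819) at the end. In WT non-Paneth cells Gsdmd, at 85.3 ± 6.96 CPM per kb (SD, n = 3), stood level with Pycard, at 89.4 ± 6.99, and Nlrp6 (56.1) with Casp1 (51.7). Below them came Gsdmc4 (35.7), then Gsdmc2 (13.6) and Il18 (12.1), which overlapped, Casp4 (8.32) and Gsdmc3 (4.92). In GRKO non-Paneth cells Gsdmd was sixth, at 18.8 CPM per kb, after Pycard (91.0), Gsdmc4 (87.0), Nlrp6 (54.5), Casp1 (32.8) and Gsdmc2 (29.7). Gsdmc4 did not differ from Pycard or Nlrp6 beyond its spread, nor Gsdmd from Gsdmc2. In GRKO Paneth cells Gsdmc4 (48.7 ± 38.5, SD, n = 3) and Pycard (48.2 ± 8.63) led without a difference beyond their spread, followed by Nlrp6 (30.8), Gsdmc2 (17.4) and Casp1 (16.6), and Il18 was last at 0.518. The Gsdmc values are per kb of the whole exonic length, although reads were counted only from its unique stretches, and no correction was made for this. The order also depends on the length used: with the canonical transcript, Casp1 rose to 106 CPM per kb in WT non-Paneth cells, above Pycard (91.8) and below Gsdmd (130).

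By the likeness of their levels over the 12 libraries, measured as the root mean square distance of centred log2 CPM, the genes nearest to Gsdmd were Abcg5 (0.27), a sterol transporter of enterocytes, Pepd (0.28) and Gm49282 (0.29). Nearest to Il18 were Ly6g2 (0.26), Btnl2 (0.28) and Slc5a1 (0.31), the sodium-glucose transporter of enterocytes. The Gsdmc genes were nearest to each other, at 0.22 for Gsdmc3 and Gsdmc4, 0.30 for Gsdmc2 and Gsdmc4 and 0.35 for Gsdmc2 and Gsdmc3, and the next genes were far off, Me1 at 0.71 from Gsdmc3 and 0.80 from Gsdmc2, and Clca1 at 0.76 from Gsdmc4. Casp4 had Zfp995 (0.19), Snrnp48 (0.30) and Clk1 (0.32) as its nearest genes, and its neighbour on the chromosome, Casp1, had Cryl1 (0.15), Pnp (0.16) and Cd302 (0.16). For Pycard they were Acat1 (0.12), Cox5b (0.13) and Atp5mc3 (0.14), and for Nlrp6 Reep4 (0.12), Cdan1 (0.13) and Lrig3 (0.13).

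The wider gasdermin family was described from a list of 10 genes, of which 7 could be tested. In GRKO non-Paneth cells 2 of the 7 were lower, against 19.8% of all genes. Beside Gsdmd, Gsdme, which encodes another pore-forming gasdermin, was lower there, with a log2 fold change of -1.43 (SE 0.307, edgeR adjusted p = 0.0037) and levels of 52.6, 58.8 and 29.1 CPM in WT and 11.6, 23.3 and 17.2 CPM in GRKO libraries. Gsdma2 was higher in Paneth cells of both genotypes, by 3.08 in WT and 3.52 in GRKO on the log2 scale, at 3.55 to 12.6 CPM against 0.321 to 1.16 CPM. It was the only gasdermin called higher in Paneth cells in either genotype.

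Among 16 sensors, 9 could be tested, and 7 of them were lower and none higher in GRKO non-Paneth cells, where 37.3% of all genes were called and 19.8% were lower. The median log2 fold change of the 9 was -0.67 against 0.02 for all genes and -2.11 for the enterocyte markers, whose part in the falls was not tested. The largest falls were those of Nlrp9b (-3.11, edgeR adjusted p = 5.1e-04), a sensor of the intestinal epithelium, Naip5 (-2.34, 5.9e-05) and Naip6 (-1.83, 3.8e-06), which sense bacterial flagellin, and Nlrp1b (-1.33, 9.7e-05). Naip5 was at 261, 199 and 98.9 CPM in WT and at 36.6, 37.6 and 36.0 CPM in GRKO non-Paneth cells, while its Paneth levels lay between 24.4 and 32.3 CPM in both genotypes. In Paneth cells edgeR and DESeq2 called none of them, and 2, Nlrp6 and Nlrc4, had an unadjusted p under 0.05 in edgeR. The difference between the sorts was called for 5 sensors, all higher, including Naip5 (2.30), Naip6 (1.72), Nlrc4 (1.04), the partner of the NAIP proteins, and Nlrp1b (1.02), but not for Nlrp6, where 18.7% of all genes were called (11.5% higher) and the enterocyte markers had a median of 1.32. In WT mice 7 of the 9 sensors were lower in Paneth cells, against 26.7% of all genes, with Nlrp9b at 1, 22 and 1 counts in the Paneth libraries, the 22 in replicate 2, against 1272 to 1787 counts in the non-Paneth libraries. In GRKO mice 5 were lower and 2 were higher in Paneth cells, against 21.2% and 17.9% of all genes, among them Nlrc4 (0.96) as a higher and Nlrp1b (-1.94) and Naip1 (-1.46) as lower genes. The Naip and Nlrp9 genes belong to families of related genes, and how far their reads can be told apart was not tested, so their levels are uncertain. Nlrp3, with 10 counts over the 12 libraries, and Il1b, with 3, were too low to test.

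**Figure D4:**
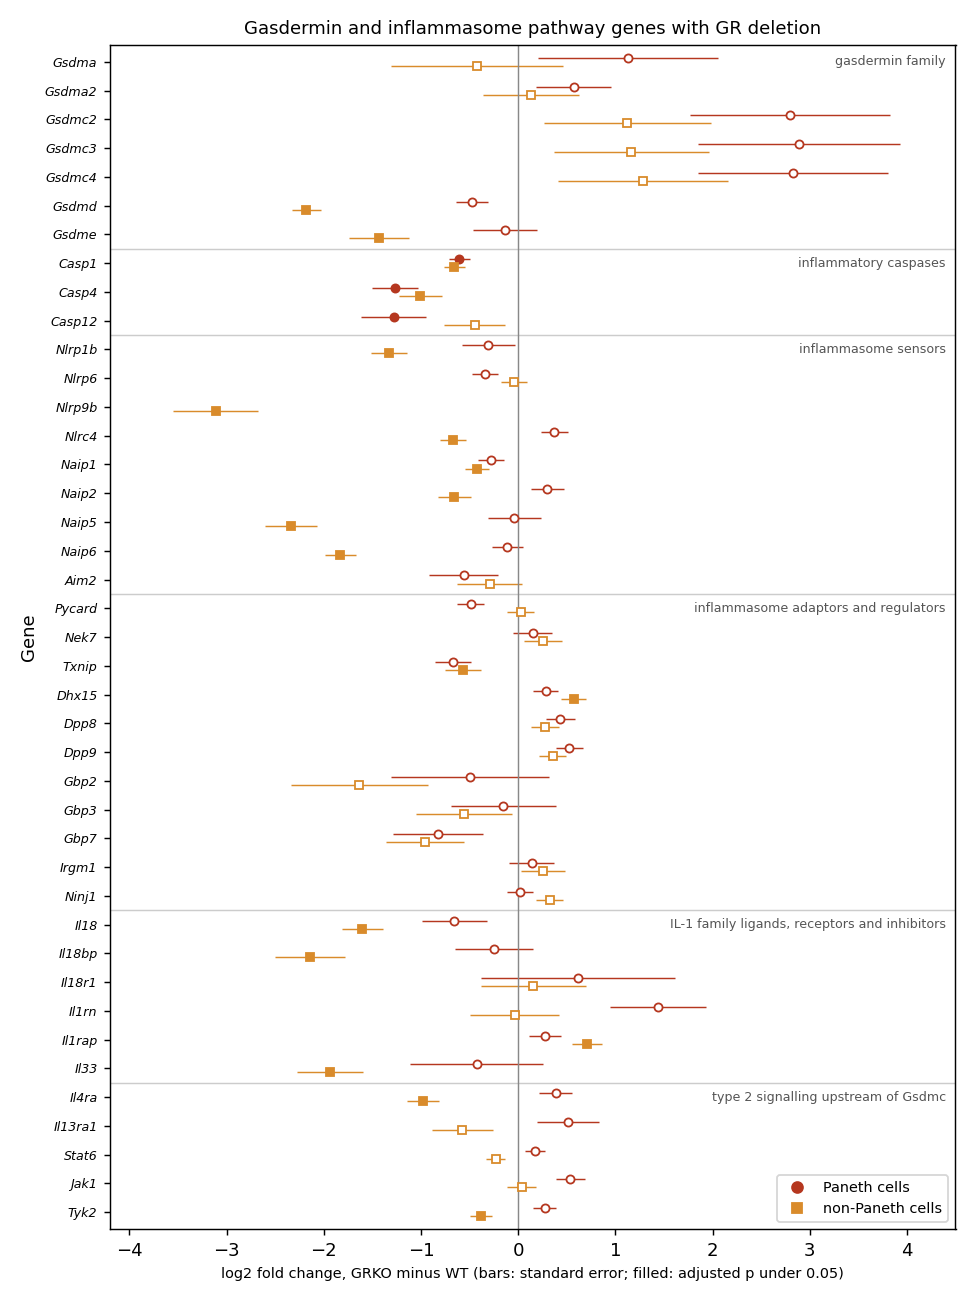
Log2 fold change of GRKO against WT for 41 tested genes of the pathway lists, in Paneth cells (circles) and non-Paneth cells (squares), with standard errors; filled symbols had an adjusted p under 0.05, and Nlrp9b in Paneth cells is not drawn because the GRKO libraries held 3 counts. Among the sensors the non-Paneth values reach from -3.11 for Nlrp9b upward, and Casp1, Casp4 and Casp12 are the genes filled in Paneth cells.

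Of the inflammatory caspases, Casp1, Casp4 and Casp12 were all lower in GRKO Paneth cells, with a log2 fold change of -1.28 for Casp12 (SE 0.330, edgeR adjusted p = 0.049), where 1.52% of all genes were lower. Casp12 held 23 to 91 counts in a Paneth library. DESeq2 called all 3 caspase genes, but edgeR called no gene in this comparison at a 1% false discovery rate or in a fit on the Paneth libraries alone. In non-Paneth cells Casp12 was not called (-0.45, edgeR adjusted p = 0.28). In the list of adaptors and regulators, which also holds Gsdmd, 2 of the 12 tested genes were lower in GRKO non-Paneth cells (Gsdmd and Txnip, at -0.57) and 1 was higher (Dhx15, at 0.57), 3 of 12 called against 37.3% of all genes. Ninj1, which acts in the rupture of the dying cell's membrane, was higher in Paneth cells of WT (1.38) and GRKO mice (1.07), and Nek7, a partner of NLRP3, likewise (0.95 and 0.85).

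Around Il18, 6 of 13 ligands, receptors and inhibitors of the IL-1 family could be tested. In GRKO non-Paneth cells 3 of the 6 were lower and 1 was higher, against 19.8% and 17.5% of all genes. There Il18bp, the secreted inhibitor of IL-18, had a log2 fold change of -2.14 (edgeR adjusted p = 3.9e-04), Il33, a type 2 alarmin, of -1.94 (5.9e-04) and Il18 of -1.60, while Il1rap, a receptor subunit, was higher by 0.71 (0.0024). Il18bp stood at 5.73, 11.9 and 11.98 CPM in WT and at 2.05, 2.73 and 1.90 CPM in GRKO non-Paneth libraries. In WT mice Il33 (-4.07), Il18, Il18r1 (-2.01) and Il18bp (-1.38) were lower in Paneth cells, 4 of the 6 against 26.7% of all genes.

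The sequence before the annotated start of the canonical transcript was read for Gsdmd, which of the 9 genes had the largest fold change in non-Paneth cells, and Casp4, which had the larger fold change of the 2 called among the 9 in Paneth cells. The 250 bases before the start of Gsdmd lie at chr15:75733743-75733992 (GRCm39, plus strand).
Gsdmd: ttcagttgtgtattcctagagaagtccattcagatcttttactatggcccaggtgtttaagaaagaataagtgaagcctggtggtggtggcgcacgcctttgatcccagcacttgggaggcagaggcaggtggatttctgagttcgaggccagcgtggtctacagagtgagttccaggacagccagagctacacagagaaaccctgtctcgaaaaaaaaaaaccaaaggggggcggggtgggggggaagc
Those before the start of Casp4 lie at chr9:5308593-5308842 (GRCm39, plus strand), with matches to an NF-kB pattern in capitals.
Casp4: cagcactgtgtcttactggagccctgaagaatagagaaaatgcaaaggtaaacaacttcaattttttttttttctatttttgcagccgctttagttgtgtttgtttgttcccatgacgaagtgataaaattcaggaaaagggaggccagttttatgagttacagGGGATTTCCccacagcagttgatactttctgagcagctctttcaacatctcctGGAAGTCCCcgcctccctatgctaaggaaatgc
The patterns searched on both strands were the glucocorticoid receptor site (GNACA and TGTNC, 3 bases apart), found in 0.299% of 21770 such windows of protein-coding genes, the STAT6 site (TTC and GAA, 4 bases apart, 5.89%), the STAT site (TTC and GAA, 3 bases apart, 7.70%), an interferon-type site (GAAA and GAAA, 2 bases apart, 3.32%) and the NF-kB site (GGG and TTCC, 2 bases apart, 5.03%), the last chosen after the sequence had been seen. None of the windows of the 9 genes held the first 4 patterns, and only the window of Casp4 held the NF-kB pattern, at 2 places. For Gsdmc2 (window at chr15:63707799-63708048), Gsdmc3 and Il18 (chr9:50476424-50476673) the canonical start, and so the window, lies inside the annotated gene. Other annotated starts were not searched. A match in these letters is a description and not a site in use, and the absence of a match says only that these letters are not in these windows.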

How the data were processed

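The authors trimmed the single-end reads, from a stranded TruSeq kit, with Trimmomatic 0.39, aligned them with STAR 2.7.10a to mm39 and an annotation they call gencode v28, and deposited raw counts per gene for 12 libraries. Counts from STAR leave out reads that map to several places or overlap several genes. The records name the Aurum kit for the RNA and the methods the RNeasy Plus Micro kit. Gene symbols were given to 54749 of 55414 identifiers through GENCODE vM39, whose release may differ from the authors', and positions and sequences come from GRCm39, the same build as mm39.

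Genes passing filterByExpr were tested in R 4.3.3 with edgeR 4.0.16 (TMM, glmQLFit with robust estimates, glmQLFTest) in 1 fit over all 12 libraries with 4 group means, and p-values were adjusted by Benjamini and Hochberg over 13057 genes at 0.05. SE is the fold change divided by the root of the F statistic. The procedure was tested on simulated data. No library was left out, and no 2 libraries of a group were repeats (chi-square per degree of freedom at least 12.4). Alternatives were DESeq2 1.42.0, RLE factors, library totals, scaling without Lyz1 and the Defa genes, 2 other filters, a replicate block, a fit on the groups compared, a 1% false discovery rate and each library left out, and, chosen after seeing the data, both WT replicate 2 or both GRKO replicate 3 libraries left out and canonical transcript lengths.

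Libraries of the same WT number deviated together (correlation 0.349, 0.229 and 0.238 after removing group means). The numbers, taken from the titles, were therefore taken to pair the WT sorts. Libraries of unlike numbers were not compared, so the pairing is not settled. The members, the lists and the tests were chosen with earlier results of these data known. Named beside the 9 genes are Nr3c1, at most 4 called genes of each pathway list and comparison with the largest fold changes, and the 3 genes nearest to each member in root mean square distance of centred log2 CPM (prior count 2). Results on some genes are not reported here.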

Additional observations from a re-analysis of the deposited data

Results flagged for a closer look

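The effect of GR deletion on Gsdmd differed between Paneth and non-Paneth cells, by 1.70 on the log2 scale in a test of the difference itself (edgeR adjusted p = 3.3e-04). The same test was passed by other genes of the pathway lists, of which at most 4 a list are named. These are Naip5 (2.30), Il18bp (1.90), Naip6 (1.72), Il4ra (1.37), Nlrc4 (1.04), Nlrp1b (1.02) and Tyk2 (0.65). In each of them the GRKO fold change was less negative, or higher, in Paneth than in non-Paneth cells. Groups of 3 libraries were not searched for single libraries that stand apart.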

How the results depend on the processing

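In WT Paneth against non-Paneth cells, 5 of the 9 genes were called, and 9 with library totals, with no filter and with the replicate block, 8 with DESeq2, and 3 to 5 with 1 library left out (3 without WT non-Paneth replicate 2). For the GRKO sorts 6 were called, and 5 to 9 otherwise. For GRKO against WT in Paneth cells 2 were called, and 0 at a 1% false discovery rate, with library totals, in a fit on those groups alone and without both WT replicate 2 libraries, 5 with no filter, 7 with DESeq2, and 0 to 3 with 1 library left out (0 without GRKO Paneth replicate 2 or WT Paneth replicate 1). Calls over all genes in this comparison moved from 420 to 0, 2, 0, 1, 1780 and 1465 in the same order. They moved to 977 with the replicate block, 112 without both GRKO replicate 3 libraries, and between 0 and 1619 with 1 library left out. In non-Paneth cells 4 were called, and 7 with no filter. The difference between the sorts was called for 1 gene, and for 2 with library totals and without both WT replicate 2 libraries, 3 with the replicate block, 4 with no filter, and 1 or 2 with 1 library left out.

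Without a filter, adjusted p-values of the Gsdmc genes fell as low as 1.1e-57 for Gsdmc4, and the cause was not tested. Pycard in non-Paneth cells changed sign from 0.03 to -0.0296 with RLE factors, -0.026 with a filter of 10 counts, -0.0249 without both WT replicate 2 libraries, -0.038 without both GRKO replicate 3 libraries and -0.0276 with DESeq2, and lay between -0.0681 and 0.0285 with 1 library left out. Nlrp6 there moved to 0.24 with library totals. The difference between sorts of Casp1 moved to -0.24 with library totals and lay between -0.00908 and 0.113 with 1 library left out, and that of Casp4 between -0.51 and 0.031. None of these was called. GRKO numbers did not all pair the sorts (correlation 0.0129, 0.262 and 0.465), nor did numbers pair the genotypes (-0.098 to 0.166). There the replicate block called 7 of the 9 genes between the GRKO sorts (Gsdmc3 added), 3 in Paneth cells (Pycard added), 4 in non-Paneth cells and, for the difference between the sorts, Gsdmc3 and Il18 beside Gsdmd. Over all genes, a 1% rate took the calls of the non-Paneth comparison from 4869 to 3002 and those of the difference from 2445 to 955, the latter also to 1432 without both GRKO replicate 3 libraries and 1562 without WT non-Paneth replicate 2, and library totals took those between the GRKO sorts from 5116 to 10785. Depth limits Il18 and the Gsdmc genes most, with as few as 15 counts of Il18 and 4 of Gsdmc3 in a Paneth library.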
